A study of Mus musculus with 4 samples.

Results

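Tubulins and proteins that bind tubulin or microtubules in growing neurites are encoded by the 10 genes described here, Dcx, Dclk1, Map1b, Map2, Mapt, Stmn1, Stmn2, Stmn3, Tubb3 and Tubb2b. They were taken by name out of 45706 features of the count files. Their levels were followed from radial glia-like stem cells to mature granule cells of the adult mouse dentate gyrus. Nuclei were sorted from mice with a tamoxifen-inducible Cre and the CAG floxStop-Sun1/sfGFP reporter, in which tamoxifen switches on a nuclear envelope label in cells with active Cre and in all their progeny. The mice were of both sexes, on a C57BL/6J background and given as 6 to 8 weeks old. For mice dissected 8 weeks after induction this cannot be the age at dissection. If it is the age at induction, age at dissection cannot be told apart from time since induction. There were 4 groups, w1, w2, w4 and w8, named for the number of weeks between induction and dissection (1, 2, 4 or 8), and each was 1 library made from the pooled left dentate gyri of 4 mice. The reporter marks whatever cells had active Cre, and the nuclei also included astrocytes, oligodendrocyte lineage cells and pericytes. Library w8 held 0 nuclei labelled as astrocytes and 0 labelled as pericytes. No library came from uninduced mice.

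Microtubules are polymers of alpha- and beta-tubulin. In a new neuron they must stay dynamic while the cell migrates and sends out an axon, and they become more stable as dendrites and axon mature. Doublecortin, the product of Dcx, binds along the lattice and is the marker by which newborn granule cells are usually recognised. Stathmins bind free tubulin dimers and promote disassembly, while the microtubule-associated proteins encoded by Map1b, Map2 and Mapt bind and stabilise the polymer.

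The 4 libraries held 17046 barcodes, of which 14367 had a cluster in the authors' table, and the other 2679 (1628 of them from w4) entered no comparison of clusters. The kept nuclei held between 13227971 and 28595331 UMIs per library, and the median depth lay between 4369 UMIs per nucleus in w1 and 7703.5 in w8. Among kept nuclei, 22 barcode sequences occurred in more than 1 library. A level is given as UMIs of a gene per 1000000 UMIs of the same nuclei (counts per 1000000, CPM), and its counting error as an exact 95% Poisson interval. These intervals cover counting error only. The clusters are the authors', named RGL (radial glia-like cells), NPC (neural progenitors), NB1 and NB2 (neuroblasts), GCimm1 and GCimm2 (immature granule cells), GCyoung, GCmat1 and GCmat2 (young and mature granule cells). Levels of marker lists are given beside the names. Most of these genes are markers by which the authors named the clusters in the same nuclei, so the levels are no separate check. The summed level of Gfap, Hopx, Notch2 and Sox9 was 1572 CPM in RGL and at most 211 CPM in the other clusters of the trajectory. Outside the trajectory it was 731 CPM in astrocytes and 534 CPM in pericytes. The astrocyte list Aqp4, Grin2c, Gja1 and Slc1a2 summed to 3495 CPM in RGL and 8688 CPM in astrocytes, so RGL held much astrocyte-type RNA. That of Eomes, Top2a and Mki67 was 794 CPM in NPC. The immature neuron list Sox11, Igfbpl1 and Calb2 summed to 1534 CPM in NB1 and 1648 CPM in NB2, and the mature granule cell list Calb1, Ntng1 and Icam5 to 662 CPM in GCmat1 and 874 CPM in GCmat2. The general granule cell list, Prox1 and Rbfox3, went from 1754 CPM in NB1 to 945 CPM in GCmat1 and 870 CPM in GCmat2. In the trajectory clusters, the 5 oligodendrocyte markers summed to between 71.0 and 119 CPM, against 14882 CPM in oligodendrocytes.

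Of the 10 genes, 9 were detected and 1, Tubb3, had no UMI in any barcode. Tubb3 encodes a neuron-specific beta-tubulin (ENSMUSG00000062380, GRCm38 chromosome 8, 123411424 to 123422015, plus strand). Its whole span, 100%, lies inside a same-strand annotated gene, Gm20388, which held 82609 UMIs in the kept nuclei. Transcripts of Tubb3 and of Gm20388 therefore cannot be told apart in these counts. Gm20388 stood at 839 CPM in RGL, 1395 CPM in NPC and 883 CPM in GCmat1, and no level of Tubb3 is read from it. A further 4 genes, Dclk1, Map1b, Map2 and Mapt, had a UMI in between 84.0 and 96.7% of kept nuclei and have no row in the authors' expression table, which left out features found in nearly all nuclei. The clusters were thus defined without these 4 genes, while Dcx, Stmn1, Stmn2, Stmn3 and Tubb2b were among the genes of that table.

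The 9 measured genes did not move as a group. Dcx, Stmn1, Stmn2 and Tubb2b fell from GCimm2 to GCyoung, and all of these but Tubb2b had a called rise in NPC or NB1 before it. Map1b rose from NPC to NB1 and from NB1 to GCimm1 and remained near its highest level in mature cells. Among the clusters of the trajectory, Dclk1 was highest in RGL and Mapt in GCimm2, and both had their lowest mean level in NPC. Map2 was highest in NPC among the same clusters, and no comparison of neighbouring clusters called it. Stmn3 was called in no comparison.

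**Figure D1:**
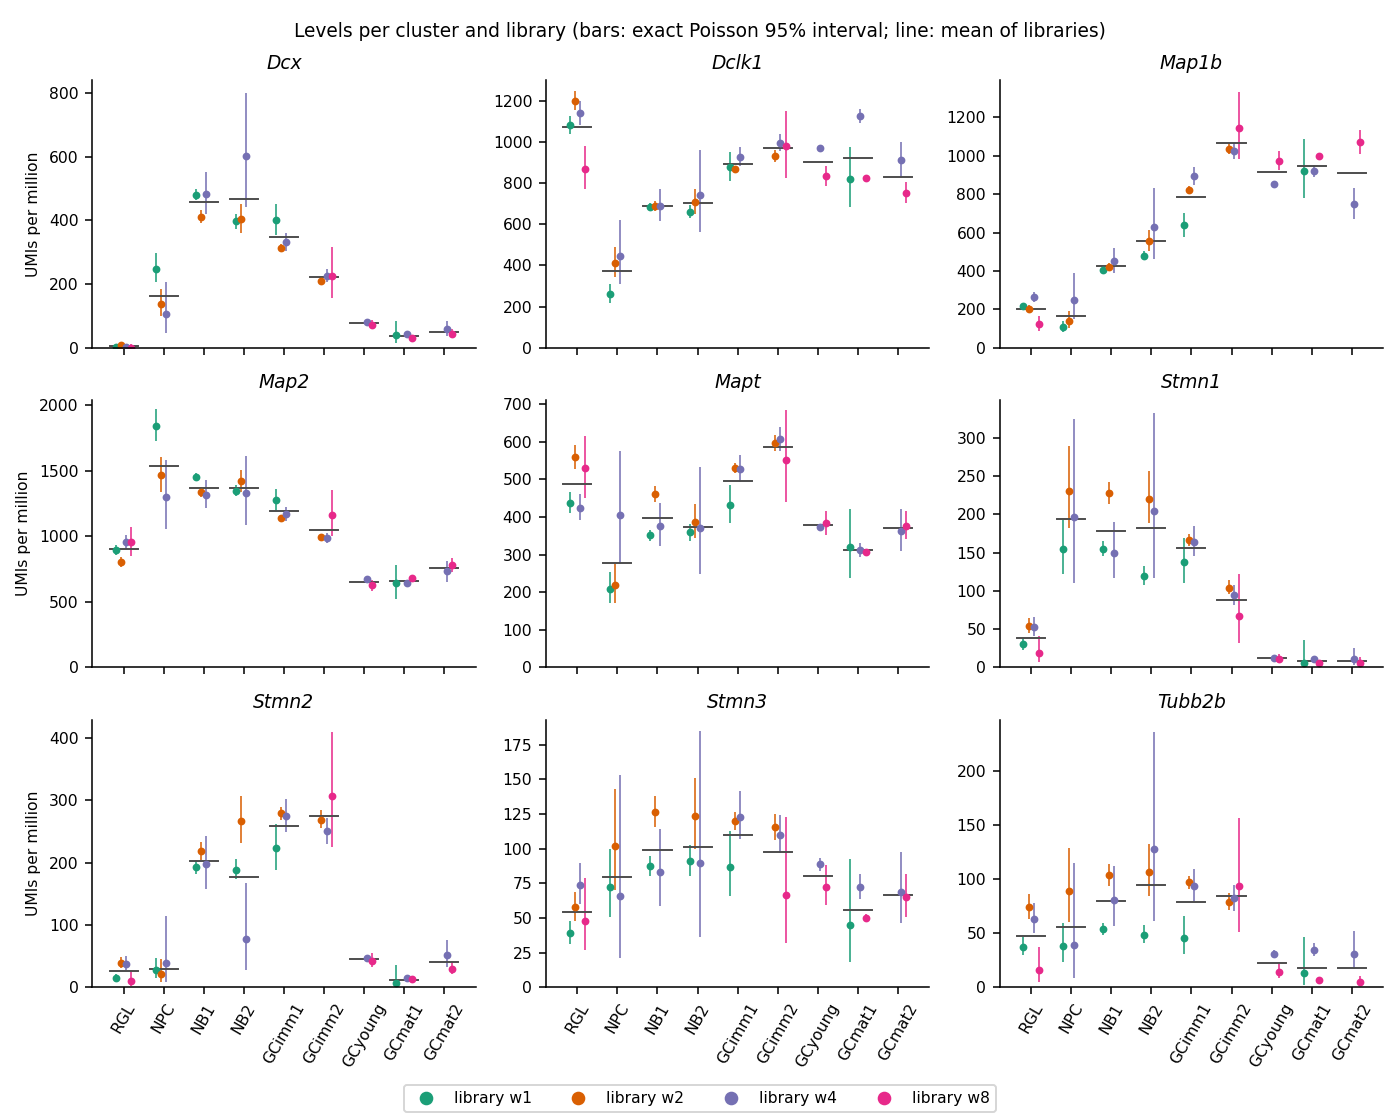
Level of each measured gene (CPM, linear axis from 0) in each cluster of the trajectory, 1 point per library with its exact Poisson 95% interval and a line at the mean of the libraries. Dcx, Stmn1, Stmn2 and Tubb2b drop between GCimm2 and GCyoung, whereas Map1b stays between 749 and 1146 CPM from GCimm2 onwards.

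Tests between clusters used 29 sums of raw UMIs and covered 13513 genes. There was 1 sum for each library with at least 10 nuclei of a trajectory cluster or of astrocytes. Oligodendrocyte lineage cells and pericytes were not part of the fit. A gene was called at a fold change of at least 1.5 when edgeR's quasi-likelihood test gave a Benjamini-Hochberg adjusted p not above 0.05, with cluster and library as terms. The authors drew the clusters from the same nuclei, so the p-values say how far the clusters differ and give no separate proof that the clusters exist. For the 4 genes outside the authors' table this overlap does not arise from the gene itself. A step that was not called may still hold a difference that the fit could not detect. The libraries are pools and each week is 1 library. A shift shared by all clusters of a library is taken up by the library term. The error of the fit thus holds how cluster differences vary from library to library. It leaves out variation between single mice and between pools of the same week. Log2 changes are the second cluster minus the first, on the scale of edgeR's TMM factors.

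Those factors matter for genes that change little. They lay between 0.707 and 0.990 in GCmat1 and between 1.22 and 1.42 in NPC. The 0.990 was that of the 17 GCmat1 nuclei of w1, and GCmat1 had 0.715 in w4 and 0.707 in w8. With library totals as the only scaling, a setting chosen after the data were seen, the median gene moved by -0.44 from the immature to the mature state, in place of -0.01. The calls over all genes then split into 1390 that rose and 4808 that fell, in place of 2336 and 2424. From GCimm2 to GCyoung they split into 776 and 2233 in place of 1253 and 1300, from RGL to NPC into 2894 and 1492 in place of 1850 and 2142, and from NPC to NB1 into 1380 and 2743 in place of 1986 and 1978. From NB1 to GCimm1 they split into 864 and 933 in place of 1049 and 642, and from GCimm1 to GCimm2 into 687 and 863 in place of 881 and 393. A fall in CPM of that order is shared by most genes, and the members' changes are given relative to the median gene.

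Dcx (ENSMUSG00000031285, chromosome X, 143855842 to 143933311, minus strand) was close to absent in stem cells, at 3.48, 9.40, 2.94 and 0 CPM in libraries w1, w2, w4 and w8 in RGL, where w8 held 0 UMIs (3 UMIs would be 9.56 CPM, and the exact Poisson upper limit is 11.8 CPM). In NPC it stood at 248 CPM in w1, 139 in w2 and 105 in w4. All NPC libraries lay above all RGL libraries, and Dcx rose by 4.82 ± 0.30 (log2 change ± SE; adjusted p = 1.4e-18, edgeR). In NB1 it stood at 481 CPM in w1, 411 in w2 and 484 in w4, again without overlap with NPC (1.56 ± 0.21, adjusted p = 1.4e-08). NB2 did not separate from NB1 in level, with 397, 404 and 602 CPM in the same libraries.

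The decline of Dcx came in steps that were each small until the cells left the immature state. Its level was 400 CPM in w1, 314 in w2 and 331 in w4 in GCimm1, and in GCimm2 it was 209 CPM in w2, 227 in w4 and 226 in w8. The ranges of NB1, GCimm1 and GCimm2 did not overlap, but neither step was called (-0.27 ± 0.16 and -0.40 ± 0.18). In GCyoung the level was 81.1 CPM in w4 and 72.5 in w8, a change of -1.18 ± 0.22 on the log2 scale (adjusted p = 3.4e-05, edgeR), and in GCmat1 it was 38.4 CPM in w1, 42.2 in w4 and 29.9 in w8, a further change of -1.07 ± 0.21 (adjusted p = 5.1e-04). Without w4 the first of these falls was -1.23, and without w8 the second was -1.0. Neither was called, and GCyoung rested on w8 alone in the first case and on w4 alone in the second. DESeq2 gave the second -1.11 with an adjusted p of 0.098. Mature nuclei still held Dcx, 43.3 to 57.5 CPM in GCmat2.

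Dclk1 (ENSMUSG00000027797, chromosome 3, 55242364 to 55539068, plus strand), the doublecortin relative that carries a kinase domain, had a different course. Its level in RGL was 1084, 1202, 1140 and 870 CPM in libraries w1, w2, w4 and w8. It was higher still in the 67 astrocyte nuclei, at 1892 CPM in w1, 2082 in w2 and 2308 in w4. In NPC it was 261 CPM in w1, 413 in w2 and 446 in w4, below every RGL library, a change of -1.96 ± 0.21 (adjusted p = 4.1e-11, edgeR). It then rose by 1.22 ± 0.21 into NB1 (adjusted p = 5.7e-06), where the libraries lay within 683 to 690 CPM. From GCimm1 onwards every library lay between 753 and 1128 CPM and no step was called. Between the immature and the mature state the change was 0.57 ± 0.14 (adjusted p = 8.5e-04), below the fold of 1.5. Without w1 it was 0.72 (adjusted p = 3.5e-06) and was called, and with library totals as the only scaling it was 0.17. Opposite-strand genes inside the Dclk1 span held at most 9145 UMIs, against 79830 for Dclk1.

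The annotated start of Dclk1 lies at the first base of its gene model, and the 250 bases before it are shown because Dclk1 was high in stem cells, fell in progenitors and rose again in neuroblasts, a course of calls that Mapt and Map1b also had. The sequence is from the RefSeq promoter table (GRCm38.p6, chr3:55242114-55242363, plus strand), with a match to ACAAT or its reverse complement in capitals, letters bound by SOX factors.
Dclk1: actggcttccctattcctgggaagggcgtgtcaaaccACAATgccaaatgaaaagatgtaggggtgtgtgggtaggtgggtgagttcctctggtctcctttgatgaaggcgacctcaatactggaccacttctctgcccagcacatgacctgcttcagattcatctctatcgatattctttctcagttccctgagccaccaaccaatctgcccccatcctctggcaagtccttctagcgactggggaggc

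Stmn1 (ENSMUSG00000028832, chromosome 4, 134468320 to 134473843, plus strand), the widely expressed stathmin of dividing and young cells, was already raised in progenitors. It stood at 30.0, 54.0, 52.3 and 19.1 CPM in libraries w1, w2, w4 and w8 in RGL, and at 154 CPM in w1, 231 in w2 and 197 in w4 in NPC. The groups did not overlap, and the gene rose by 1.85 ± 0.19 (adjusted p = 1.7e-11, edgeR). In NB1 it was 155, 228 and 150 CPM in the same libraries, overlapping the range of NPC. GCimm2 had 104 CPM in w2, 94.1 in w4 and 66.6 in w8, below all GCimm1 libraries (137 to 167 CPM). This step just passed the fold (-0.60 ± 0.15, adjusted p = 0.0049), and without w1, w2 or w4 it was -0.56, -0.64 and -0.56 and was not called. In GCyoung only 12.4 CPM in w4 and 11.2 in w8 were left, a change of -2.53 ± 0.21 (adjusted p = 1.2e-13). Of the 60-base words at the 3′ end of Stmn1 transcripts, 31.1% also occur in the pseudogene Gm11223, and reads that mapped to both were left out of the counts, so its level is a lower estimate.

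Stmn2 (ENSMUSG00000027500, chromosome 3, 8509360 to 8561606, plus strand) encodes a neuron-specific stathmin of growth cones, and it came on later than Stmn1. In NPC it was 28.1 CPM in w1, 21.6 in w2 and 39.3 in w4, overlapping the RGL range of 9.56 to 39.0 CPM. In NB1 it was 193 CPM in w1, 218 in w2 and 197 in w4, so that the clusters did not overlap and the gene rose by 3.15 ± 0.32 (adjusted p = 5.7e-12, edgeR). It stayed between 223 and 306 CPM in all libraries of GCimm1 and GCimm2. GCyoung held 46.6 CPM in w4 and 42.5 in w8, a change of -2.17 ± 0.23 (adjusted p = 5.9e-11), and GCmat1 held 6.40 CPM in w1, 15.0 in w4 and 12.5 in w8, a change of -1.64 ± 0.24 (adjusted p = 2.5e-06). GCmat2, the smaller mature cluster, stood above GCmat1 again, at 50.8 CPM in w4 and 29.8 in w8 (1.37 ± 0.33, adjusted p = 0.0034). Without w4 that last difference was 1.18 with an adjusted p of 0.084, and after thinning each nucleus to 2000 UMIs it was 1.18 with an adjusted p of 0.24.

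Stmn3 (ENSMUSG00000027581, chromosome 2, 181306459 to 181314500, minus strand), a further neuronal stathmin, varied least among the stathmins. Its mean over libraries was 54.6 ± 14.8 CPM in RGL (SD, n = 4), 110 ± 20.0 CPM in GCimm1 (SD, n = 3) and 55.7 ± 14.6 CPM in GCmat1 (SD, n = 3), and when clusters are sorted by level each overlapped the next. Along the trajectory, GCyoung (88.6 CPM in w4 and 72.5 in w8) did not overlap GCmat1 (44.8 to 72.4 CPM in 3 libraries), with a log2 change of -0.37 ± 0.17 (adjusted p = 0.37, edgeR). No step was called, and the immature to mature change was -0.09 ± 0.14. With library totals as the only scaling, Stmn3 rose from RGL to NPC (0.64 ± 0.21, adjusted p = 0.017). Its window is shown as that of the stathmin that did not follow Stmn1 and Stmn2, from the RefSeq promoter table (GRCm38.p6, chr2:181314501-181314750, minus strand), with a match to ACAAAG, also letters bound by SOX factors, or its reverse complement in capitals.
Stmn3: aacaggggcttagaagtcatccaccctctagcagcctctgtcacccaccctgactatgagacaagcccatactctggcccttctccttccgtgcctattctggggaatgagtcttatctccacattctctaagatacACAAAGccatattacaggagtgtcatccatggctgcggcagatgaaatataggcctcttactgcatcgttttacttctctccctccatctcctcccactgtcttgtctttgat

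Map1b (ENSMUSG00000052727, chromosome 13, 99421446 to 99516540, minus strand), the earliest of the microtubule-associated proteins in developing axons, was low in RGL at 215, 203, 263 and 121 CPM in libraries w1, w2, w4 and w8. It stood at 108 CPM in w1, 142 in w2 and 249 in w4 in NPC, a range that overlaps RGL. The fit gave a change of -0.82 ± 0.24 from RGL to NPC (adjusted p = 0.0071, edgeR), which was -0.61 without w1, -0.76 without w2 and -0.54 with library totals as the only scaling, in each case not called. In NB1 it was 402 CPM in w1, 422 in w2 and 450 in w4, clear of NPC (1.82 ± 0.25, adjusted p = 2.7e-08). GCimm1 held 638 CPM in w1, 823 in w2 and 894 in w4, clear of NB1 (1.00 ± 0.20, adjusted p = 1.0e-04). GCimm2 was the highest cluster of the trajectory at 1036 CPM in w2, 1024 in w4 and 1146 in w8.

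Map1b was the 1 member that rose from the immature to the mature state in the fit (0.73 ± 0.15, adjusted p = 5.4e-05), and the call depends on the scaling: with library totals as the only scaling it was 0.34 ± 0.13 and was not called. GCmat1 held 922 CPM in w1, 919 in w4 and 999 in w8, above NB1 but below GCimm2. Within libraries, where the clusters of a state are weighted by their UMIs, the log2 ratio of mature over immature nuclei was 1.12 in w1, -0.08 in w4 and -0.20 in w8. In w1 the immature nuclei were mostly NB1, and the mature ones were 17 GCmat1 nuclei. In w4 the immature nuclei were mostly GCimm1 and GCimm2, and in w8 they were 28 GCimm2 nuclei. The 250 bases before the RefSeq start of Map1b (GRCm38.p6, chr13:99516603-99516852, minus strand) are shown for contrast with Dclk1 and Stmn3, as they hold no match to any motif searched.
Map1b: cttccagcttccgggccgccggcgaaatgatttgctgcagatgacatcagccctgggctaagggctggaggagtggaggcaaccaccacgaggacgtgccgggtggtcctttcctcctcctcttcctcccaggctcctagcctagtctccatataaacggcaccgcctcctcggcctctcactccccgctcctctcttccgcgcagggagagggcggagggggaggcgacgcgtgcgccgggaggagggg

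Over 32851 RefSeq promoter windows of 300 bases, from 250 before to 50 after the start, ACAAAG was found on either strand in 18.7% and ACAAT in 31.0%. The E-box letters CAGCTG and CATATG, bound by basic helix-loop-helix factors, were found in 16.3% and 3.91%. None of these motifs contains another. Windows were at hand for 6 members. ACAAAG occurred in Stmn3 and in 1 of the windows of Dcx, ACAAT in both windows of Dclk1 and at 3 places in that of Tubb3, and neither E-box in any window of a member. These are matches of letters in a short window and were not related to binding.

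Map2 (ENSMUSG00000015222, chromosome 1, 66175273 to 66442583, plus strand), known as the dendritic microtubule-associated protein, was detected in every cluster. Among the trajectory clusters it was highest in NPC at 1844 CPM in w1, 1463 in w2 and 1298 in w4, and lowest in GCyoung at 677 CPM in w4 and 625 in w8. RGL lay between 805 and 958 CPM, below all NPC libraries, yet the step was not called (0.47 ± 0.19, adjusted p = 0.054, edgeR). Without w4 it was 0.72 (adjusted p = 0.031) and with library totals as the only scaling 0.80 (adjusted p = 5.5e-06), and both were called. From GCimm2, at 992 CPM in w2, 985 in w4 and 1166 in w8, to GCyoung the ranges did not overlap and the change was -0.39 ± 0.22 (adjusted p = 0.25), or -0.69 (adjusted p = 7.9e-04) with library totals as the only scaling. The change from the immature to the mature state was -0.49 ± 0.15 (adjusted p = 0.0060), under the fold of 1.5. Without w4 it was -0.74 (adjusted p = 0.035) and with library totals as the only scaling -0.89 (adjusted p = 1.9e-09), and both were called.

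Mapt (ENSMUSG00000018411, chromosome 11, 104231390 to 104332090, plus strand) encodes tau, which is best known from axons. It was 438, 560, 425 and 529 CPM in libraries w1, w2, w4 and w8 in RGL, and 208 CPM in w1, 219 in w2 and 406 in w4 in NPC, with a change of -1.27 ± 0.20 (adjusted p = 5.9e-07, edgeR). Into NB1, at 351, 461 and 376 CPM in the same libraries, it rose by 0.94 ± 0.20 (adjusted p = 1.8e-04). Library w4 was lower in NB1 than in NPC, on 22 NPC nuclei, and without w2 the change was 0.67 with an adjusted p of 0.077. Its level was highest among trajectory clusters in GCimm2, at 597 CPM in w2, 608 in w4 and 553 in w8, above the 307 to 320 CPM of GCmat1. GCyoung, at 373 CPM in w4 and 383 in w8, also lay below GCimm2, and that step was not called (-0.34 ± 0.20) except with library totals as the only scaling (-0.62, adjusted p = 0.0027). The 45 oligodendrocyte nuclei stood above every neuronal cluster, at 2138 CPM in w2, 1985 in w4 and 1962 in w8, and all 45 of them held a Mapt UMI.

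Tubb2b (ENSMUSG00000045136, chromosome 13, 34126748 to 34130466, minus strand), a beta-tubulin of migrating neurons, was low throughout and differed between libraries in the same cluster. In NB1 it was 53.7 CPM in w1, 103 in w2 and 80.7 in w4, and in RGL 37.4, 73.8, 62.6 and 15.9 CPM in libraries w1, w2, w4 and w8. Library w2 lay above w1 in all 5 trajectory clusters that held both. Library w4 lay above w8 in RGL, GCyoung, GCmat1 and GCmat2 but not in GCimm2. The part of the libraries in these values was not tested. No step was called up to GCimm2, where the level was 78.8 CPM in w2, 82.0 in w4 and 93.3 in w8. GCyoung held 31.1 CPM in w4 and 13.9 in w8, a change of -1.07 ± 0.23 (adjusted p = 3.7e-04, edgeR). Without w4, which left GCyoung with w8 alone, this was -1.49 and was not called. GCmat1 held 12.8 CPM in w1, 34.1 in w4 and 6.52 in w8, so that w4 was at the level of its own GCyoung nuclei.

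The steps can now be counted over the 9 members tested. From RGL to NPC 2 rose (Dcx and Stmn1) and 3 fell (Dclk1, Map1b and Mapt), where 13.7% of all genes rose and 15.9% fell. From NPC to NB1 5 rose (Dcx, Dclk1, Map1b, Mapt and Stmn2) and 0 fell, against 14.7% and 14.6% of all genes. The median change of the members at this step was 0.94, and that of all genes 0.06. From NB1 to NB2 edgeR and DESeq2 each called 0 of 9, and 0 had an unadjusted p under 0.05, where 1.81% of all genes rose and 1.13% fell. From NB1 to GCimm1 1 rose (Map1b) and 0 fell, against 7.76% and 4.75%. From GCimm1 to GCimm2 0 rose and 1 fell (Stmn1), against 6.52% and 2.91%.

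From GCimm2 to GCyoung 0 rose and 4 fell (Dcx, Stmn1, Stmn2 and Tubb2b), where 9.27% of all genes rose and 9.62% fell. The median change of the members was -0.39 at this step, against 0.03 for all genes. Without w4, GCyoung rested on the 188 nuclei of w8 alone, and Dcx (-1.23) and Tubb2b (-1.49) were not called. From GCyoung to GCmat1 0 rose and 2 fell (Dcx and Stmn2), against 1.6% and 2.25%. From GCmat1 to GCmat2 1 rose (Stmn2) and 0 fell, against 3.01% and 4.28%. Between the mean of NB1, GCimm1 and GCimm2 and the mean of GCyoung and GCmat1, 1 rose (Map1b) and 4 fell, against 17.3% and 17.9%. The 4 that fell were Stmn1 (-3.12 ± 0.17), Stmn2 (-2.74 ± 0.18), Dcx (-2.08 ± 0.17) and Tubb2b (-1.14 ± 0.17), each lower in the mature state in 3 of 3 libraries. The adjusted p-values from edgeR were 1.6e-22, 6.6e-19, 1.1e-15 and 2.6e-07. Of these libraries, w1 had only 17 GCmat1 nuclei on the mature side, and w8 had only 28 GCimm2 nuclei on the immature side.

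**Figure D2:**
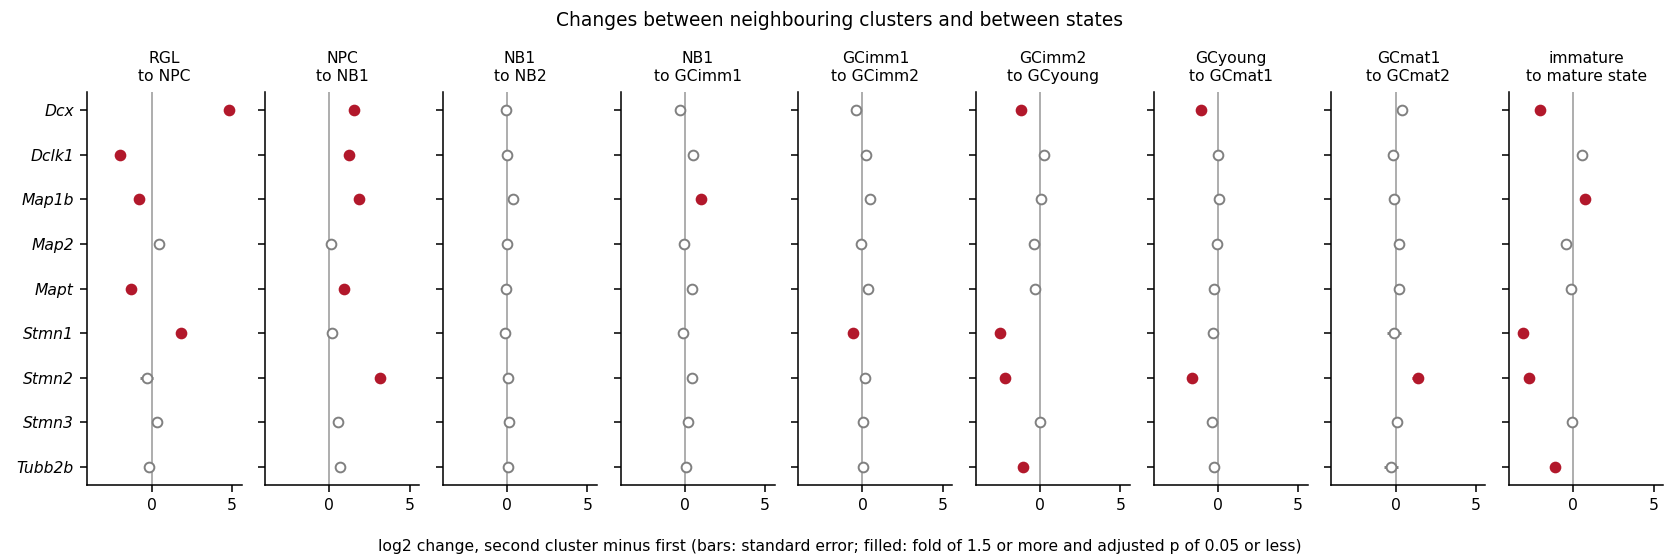
Log2 change (second cluster minus first, with its standard error) of the 9 measured genes in the 9 comparisons; filled points passed a fold of 1.5 and an adjusted p of 0.05. From NPC to NB1 the 5 filled points lie to the right of 0, and from GCimm2 to GCyoung the 4 filled points lie to the left.

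The authors' pseudo-time places each nucleus on the path from RGL to GCmat1, and 13635 kept nuclei have a value. Medians were 1.11 in RGL, 8.07 in NPC, 13.0 in NB1, 16.9 in GCimm1, 19.9 in GCimm2, 27.2 in GCyoung and 30.0 in GCmat1. In bins of 1 unit with at least 20 nuclei, the genes reached their highest level at different places. Over all libraries, Map2 peaked in the bin that starts at 7 (2029 CPM), Stmn1 at 8 (217 CPM), Dcx at 9 (635 CPM), Stmn2 at 11 (314 CPM), Tubb2b at 15 (98.5 CPM), Stmn3 at 17 (123 CPM) and both Map1b (1079 CPM) and Mapt (596 CPM) at 20. Dclk1 peaked in the RGL bin at 1 (1152 CPM) and was lowest at 8 (258 CPM), and Mapt was lowest at 9 (115 CPM).

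After their peaks in the pooled bins, Dcx was first below 50% of its highest level at 17, Stmn1 and Map2 at 20, Stmn2 at 24 and Tubb2b at 25. These places also differ between libraries: it was 19 in w2 and 14 in w4 for Dcx, 19 and 20 for Stmn1 and 21 in both for Map2, while Stmn2 was first below 50% at 13 in w1 and at 24 in w4, and Tubb2b at 24 in w4. A first bin below 50% can be a passing dip. Dcx in w4 was 331 CPM at 14 (30 nuclei), but 422 at 15, 382 at 16 and 323 at 17, against a peak of 677 CPM. Stmn2 in w1 was 143 CPM at 13 and back at 210 at 14, against a peak of 318 CPM. With all libraries pooled, Map1b did not drop below 50% of its peak and stood at 1044 CPM in the last bin, at 31, which came from w8. In w4 alone it was at 564 CPM in the bin at 30 (27 nuclei), under 50% of its peak of 1133 CPM in that library. The bins mix libraries in unequal parts: w1 had enough nuclei in bins up to 16, w2 up to 21 and w4 up to 30. The peak of Dcx was at 9 in w1 and w2 and at 10 in w4, and that of Map1b at 20 in w2 and at 21 in w4. Stmn1 peaked at 8 in w1, 11 in w2 and 10 in w4, Stmn2 at 11, 11 and 16, Stmn3 at 16, 9 and 16, Tubb2b at 11, 10 and 15, and Mapt at 1, 20 and 19, so their places in the sequence differ between libraries, and w4 had too few nuclei between 2 and 9. In the bins from 16 to 21, which w2 and w4 both cover, Dcx went from 338 to 158 CPM in w2 and from 382 to 203 CPM in w4, while Map1b went from 774 to 1033 CPM in w2 and from 929 to 1133 CPM in w4.

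**Figure D3:**
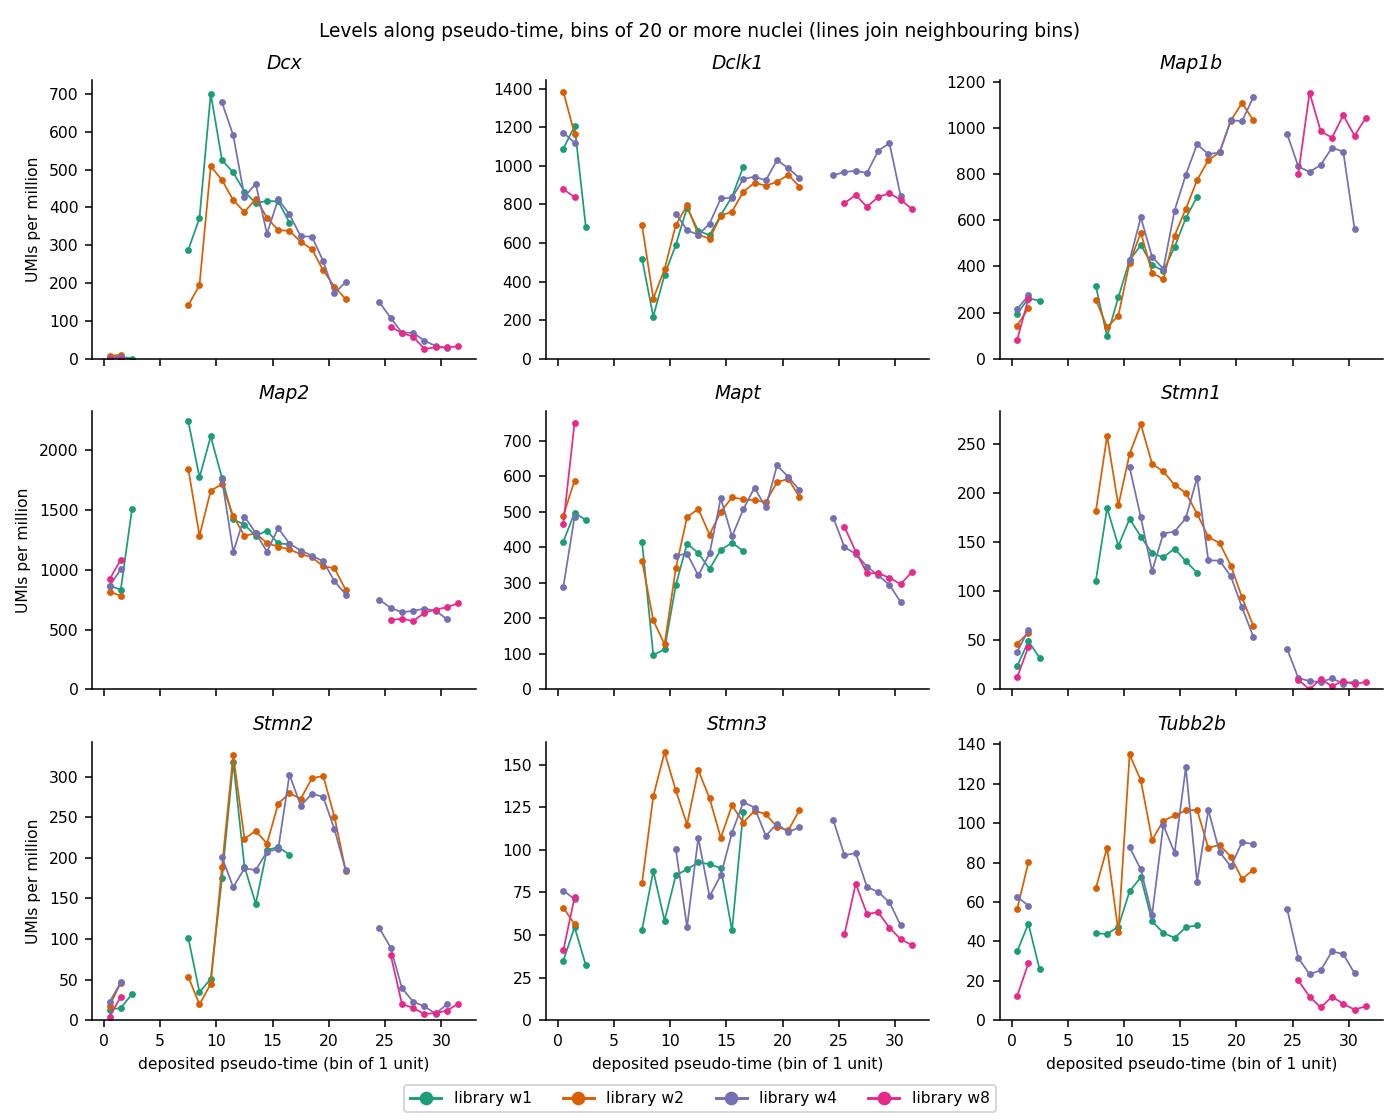
Level of each measured gene (CPM, linear axis from 0) against the deposited pseudo-time in bins of 1 unit, 1 line per library. The Dcx lines peak at 9 or 10 and decline in w1, w2 and w4, while the Map1b lines climb to about 20 in w2 and w4.

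In the share of nuclei with at least 1 UMI, the contrast between cell states was seen nucleus by nucleus. Dcx was found in 75.8% of NB1 nuclei (exact Clopper-Pearson 95% interval 74.1 to 77.4%) and 2.24% of RGL nuclei (1.52 to 3.16%), at median depths of 4057.5 and 4091 UMIs. These intervals pool the nuclei of all libraries and leave out variation between pools of mice. Oligodendrocytes, which should lack Dcx, had it in 4.44% (0.543 to 15.1%), at a median of 4801 UMIs. Oligodendrocyte precursors had it in 26.7% (19.4 to 35.2%) and 72.6 CPM, above RGL and astrocytes. That pooled level was also above GCmat1 (31.4 CPM) and GCmat2 (47.4 CPM), and below GCyoung (80.9 CPM). Stmn2 was found in 75.4% of GCimm2 nuclei, 23.5% of GCyoung nuclei and 8.88% of GCmat1 nuclei, and the last share lay at the 8.89% of oligodendrocytes, although GCmat1 was deeper (8138 UMIs). Stmn1 was found in 50.7% of GCimm2 and 5.48% of GCmat1 nuclei.

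Thinning each nucleus to 2000 UMIs, which left out 141 shallower nuclei, gave 55.3% of NB1, 46.3% of GCimm1, 35.5% of GCimm2, 13.5% of GCyoung and 6.08% of GCmat1 nuclei with Dcx, against 0.95% of RGL and 0 of 45 oligodendrocytes. At full depth the Dcx share was 74.4% in GCimm1 and 71.7% in GCimm2, a smaller gap than the 1 at equal depth. Map1b went the other way, from 50.2% of thinned NB1 nuclei to 86.3% in GCimm2 and 84.1% in GCmat1. Mapt was found in 97.8% of thinned oligodendrocyte nuclei and 67.8% of those of GCimm2.

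**Figure D4:**
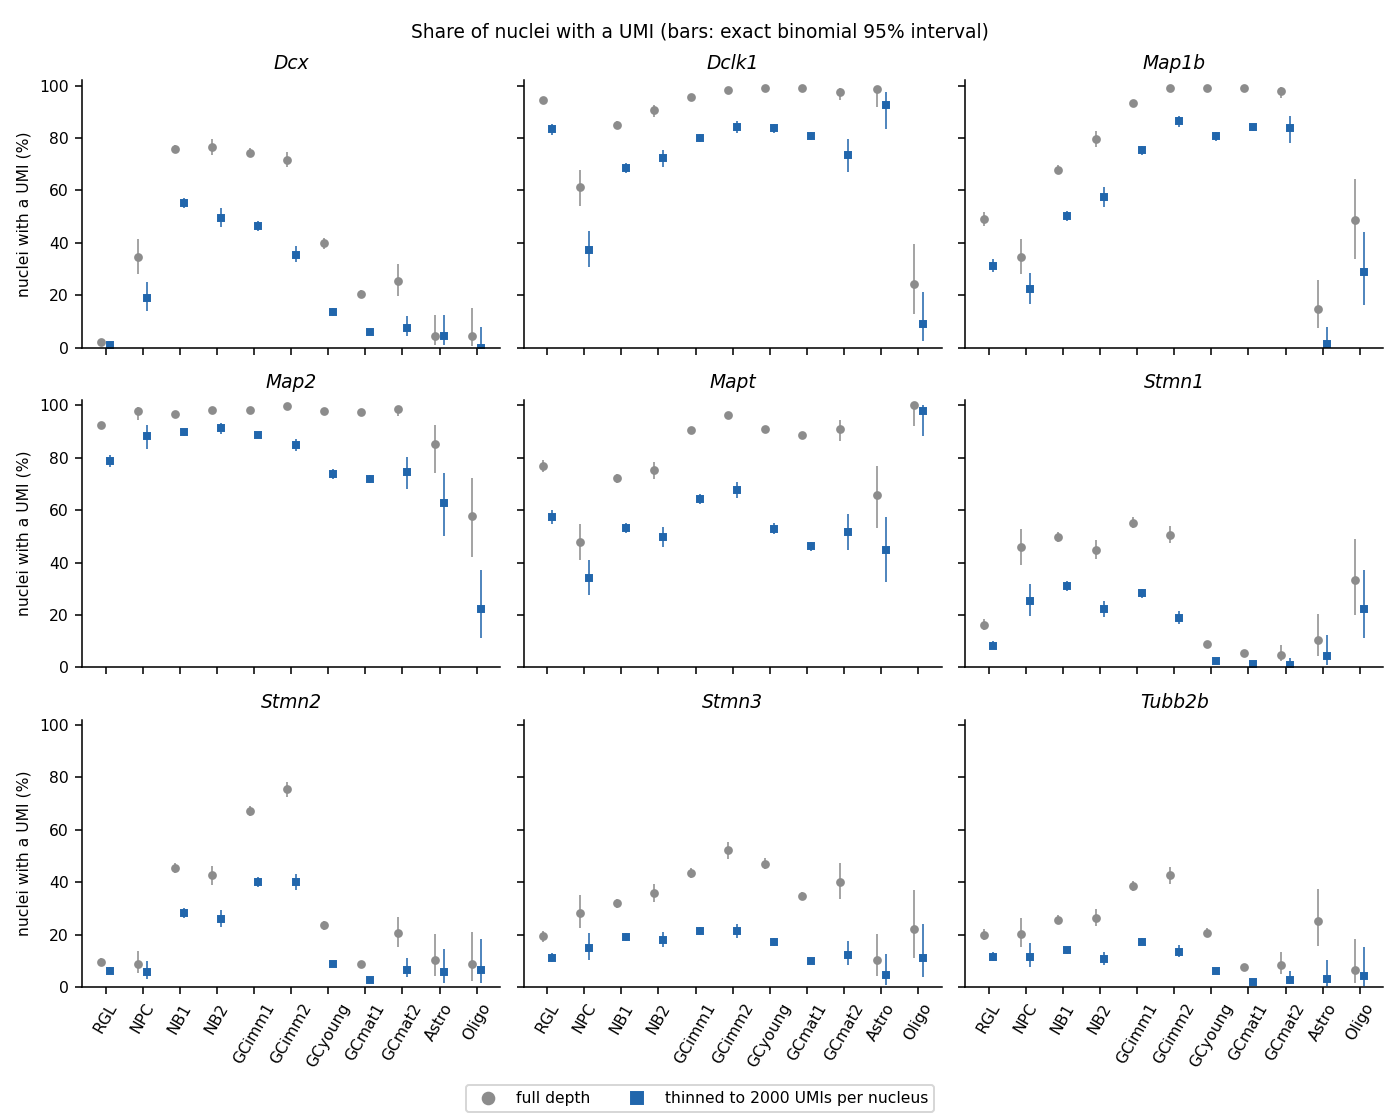
Percentage of nuclei with at least 1 UMI of each measured gene by cluster, at full depth (grey circles) and after thinning to 2000 UMIs (blue squares), with exact binomial 95% intervals. The intervals leave out variation between pools of mice. For Dcx the thinned share goes from 55.3% in NB1 to 6.08% in GCmat1, while for Map1b it goes from 50.2% to 84.1%.

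Across the weeks, where each level is 1 library over all its kept nuclei and no test is possible, 5 of 9 members were lower by at least 1.5 times in w8 than in w1, as were 52.5% of all genes tested, and 12.4% of all genes were higher by that factor. Dcx stood at 349, 273, 108 and 33.3 CPM in the libraries from w1 to w8. Stmn1 went from 119 through 153 and 34.9 to 7.17 CPM, Stmn2 from 149 through 233 and 76.5 to 16.2 CPM, Tubb2b from 47.6 through 90.7 and 42.8 to 7.38 CPM, and Map2 from 1301 through 1104 and 758 to 689 CPM. Stmn1, Stmn2 and Tubb2b were highest in w2, the library with most GCimm1 nuclei. Within NB1 alone w2 also stood above w1, at 228 against 155 CPM for Stmn1, 218 against 193 for Stmn2 and 103 against 53.7 for Tubb2b. The source of these differences was not tested. The median gene was 1.55 times higher in w1 than in w8. Against that, the ratio of w1 to w8 was 16.6 for Stmn1 (counting interval 14.4 to 19.3), 10.5 for Dcx (9.77 to 11.2), 9.18 for Stmn2 (8.29 to 10.2), 6.45 for Tubb2b (5.51 to 7.58) and 1.89 for Map2 (1.85 to 1.93). Nuclei of w8 held more UMIs than those of w1, and the measure matters. In UMIs per nucleus the same ratio was 9.20 for Stmn1, 5.79 for Dcx, 5.07 for Stmn2, 3.57 for Tubb2b and 1.04 for Map2, which leaves 4 members lower by at least 1.5 times. The count was 6 with all barcodes and 6 with nuclei of NPC through GCmat2 alone, both in CPM. The share of all genes past 1.5 times was computed only for kept nuclei in CPM.

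In CPM, Map1b was the 1 member higher by at least 1.5 times in w8, at 385, 709, 829 and 983 CPM in w1, w2, w4 and w8. In UMIs per nucleus Map1b was 4.62 times higher in w8 than in w1, and Dclk1 (1.98 times) and Mapt (1.60 times) were higher by over 1.5 times as well. Depth alone raises this measure, with a median of 4369 UMIs per nucleus in w1 and 7703.5 in w8. In CPM, Dclk1 went from 747 in w1 to 818 in w8 and Mapt from 364 to 321. Weeks differ in which clusters they hold, so fewer immature nuclei and less RNA per nucleus cannot be told apart in these totals. The age of the mice at dissection may also differ between weeks. Within RGL, Dclk1 was between 870 and 1202 CPM and Mapt between 425 and 560 CPM. In GCmat1, Dcx was 42.2 CPM in w4 and 29.9 in w8, and Dclk1 1128 and 825 CPM.

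The other genes of the microtubule system were described from lists of 113 genes by role. Over all genes tested, 17.3% rose and 17.9% fell between the states, and nothing particular to a list is read from its counts. The counts depend on the scaling as the members' do, and those with library totals as the only scaling are given beside them. A log2 change between the states is that of the fit, between the means of the clusters of each state. The CPM pairs printed with it are pooled levels of NB1 and GCmat1 alone, without TMM factors. They are a different contrast and can lie further apart than the log2 change. Among 14 genes of the immature neuron cytoskeleton, 10 fell and 0 rose from the immature to the mature state, with a median change of -1.02 against -0.01 for all genes (13 fell and 0 rose with library totals). The largest falls were those of Gap43 (growth cone phosphoprotein, -3.10), from 46.2 CPM in NB1 to 1.44 in GCmat1, and Dpysl3 (a collapsin response mediator, -2.95), from 273 to 11.7 CPM. Of 12 tested genes of the mature neuron cytoskeleton, 4 rose and 0 fell (median 0.27), but with library totals 2 rose and 3 fell (median -0.17). The list was led by Map1a (1.45), the mature counterpart of Map1b, from 14.9 CPM in NB1 to 36.7 in GCmat1, and the axon initial segment spectrin Sptbn4 (1.26), from 80.5 to 184 CPM. From NPC to NB1, where 14.7% of all genes rose and 14.6% fell, 8 of these 12 rose and 0 fell (8 and 1 with library totals), among them Ank3, the ankyrin of the axon initial segment, from 82.1 to 3320 CPM (5.85 ± 0.32).

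Of 11 tested tubulins, 2 fell between the states, Tuba1a (-1.51), from 267 CPM in NB1 to 26.0 in GCmat1, and Tubb5 (-1.42), from 81.7 to 9.32 CPM, and 0 rose (median -0.27), and with library totals 7 fell. At the step into NB1 4 tubulins rose and 1 fell (median 0.14), and with library totals 2 rose and 2 fell (median -0.12), against 14.7% and 14.6% of all genes in the fit. The fall was that of the gamma-tubulin Tubg1, named here after its value was seen. Among the rises were Tubb4a (2.46) and the other gamma-tubulin, Tubg2, which held 1 UMI in NPC and was 6.12 times higher in NB1 (counting interval 1.06 to 245). Among 18 relatives and stabilisers, 4 rose and 3 fell (median 0.20), and with library totals 3 rose and 7 fell (median -0.22). Dclk3 (3.34) and Map7 (2.31) rose most and Dpysl3 and Dpysl5 (-2.56) fell most. In the same list Dpysl4 and Stmn4 fell from RGL to NPC and rose into NB1, with 3 UMIs each in NPC. Dpysl4 was 5.84 times higher in RGL than in NPC (1.95 to 28.7) and 9.64 times higher in NB1 (3.27 to 47.0), and Stmn4 was 4.09 times (1.35 to 20.3) and 18.5 times higher (6.31 to 90.0). Tppp rose into NB1 from 1 UMI in NPC (6.70 times, 1.17 to 268). Dcdc2a had 43 UMIs in RGL and 0 in NPC, at least 2.15-fold lower against a floor of 3 UMIs over the cluster.

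Enzymes that act on tubulin split. Of 15 tested, 3 rose and 6 fell between the states (median -0.05), and 2 and 7 with library totals. The polyglutamylase Ttll11 (2.16) and the deglutamylase Agbl4 (1.36) rose, and Vash2 (-4.57), a detyrosinating enzyme, and Atat1 (-2.66), the tubulin acetyltransferase, fell, the latter from 172 CPM in NB1 to 12.2 in GCmat1. Agbl4 also fell from 358 CPM in NPC to 21.6 in NB1 (-3.53), where Ttll7 (2.78) rose, as did Ttll1 from 3 UMIs in NPC (4.92 times, 1.66 to 24.1), and Vash2 rose from RGL to NPC (3.06). Of 14 plus-end and minus-end proteins, 2 rose and 4 fell (median -0.35), and 2 and 11 with library totals, with Nav3 (2.21) rising from 168 to 1524 CPM and Camsap3 (-1.38) and Clasp1 (-0.86) falling. Nav1 rose from RGL to NPC (2.24) and Camsap3 from NPC to NB1 (2.53).

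Among 18 motors, 1 rose and 3 fell (median -0.14), and 1 and 6 with library totals. Dync1i1, a dynein intermediate chain, rose from 64.6 CPM in NB1 to 483 in GCmat1 (2.20), and the kinesins Kif21b (-3.56) and Kif5a (-1.12) fell most. The mitotic kinesins Kif11 and Kif23 rose from RGL to NPC (5.47 and 6.16) and fell into NB1 (-6.86 and -7.23). Kif2c followed them, with 23 UMIs in NPC against 2 in RGL (76.8 times higher, 19.0 to 672) and 3 in NB1 (91.5 times, 27.6 to 476), while Kif26b (3.28) and Kif21b (2.21) rose at the first step and Kif5c (2.01) and Dync1i1 (2.85) at the second. Of 12 kinases and Lis1 partners, 1 rose (Mapk10, 1.03) and 2 fell (Nde1, -2.31, and Cdk5r1, -0.76), with a median of -0.06, and 1 and 6 with library totals. Nde1 also fell from NPC to NB1 (-2.88). The intermediate filament genes of stem cells, 3 in number, had 2 falls between the states, and 3 with library totals. Gfap fell from RGL to NPC (-2.44) and Nes from NPC to NB1 (-2.91). In the remaining lists, Ank2 fell from RGL to NPC (-2.13), and Basp1 (2.18), Dpysl5 (2.16), Ina (2.55) and Sptbn4 (2.10) rose from NPC to NB1, while Dpysl3 rose from RGL to NPC (2.36).

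Likeness was measured as Pearson's r of log2 CPM over the 29 sums, with 1 CPM added, among 6462 genes with at least 50 CPM in a cluster. The sums include those of astrocytes and share libraries and depth, so the values are descriptions. Closest to Dcx were Elavl3 (r = 0.94), a neuronal RNA-binding protein, and Prkcb (0.93), and closest to Map1b were Erc2 (0.97) and Lrrc7 (0.96), both proteins of synapses. For Map2 Elavl2 (0.95) was close, and the nearest to the others were, for Stmn1 Draxin and Mtss1 (both 0.94), for Stmn2 Myo16 (0.94) and Clcn5 (0.91), for Stmn3 Farsa and Atp9a (both 0.89), and for Tubb2b Hspa8 (0.88) and Actb (0.87). Dclk1 had Bhlhe40 (0.84) and Gabbr1 (0.83). Mapt had no close partner, with Lepr and Unc13b at 0.68. Within the members, r was highest between Map2 and Stmn1 (0.89) and lowest between Map2 and Dclk1 (-0.75).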

How the data were processed

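Single-nucleus 10x 3′ libraries from the w1, w2, w4 and w8 pools were used. Per the labels, the authors aligned reads with STARsolo 2.7.4a to mm10, and their methods state that exonic and intronic UMIs were kept and multi-mapped reads left out. The deposited matrices hold raw UMI counts per feature and barcode. The deposited table of 13353 genes holds log2 values that the authors scaled by scran size factors, with each nucleus's cluster and slingshot pseudo-time. Its nuclei are those left after the authors removed doublets, low-quality nuclei and nuclei in small graph components. They also left out a group of w4 nuclei that they propose may stem from a single male, a possible outlier. Features found in 1% or fewer or in 80% or more of nuclei are not in the table.

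Raw counts were summed per library and cluster for the trajectory clusters and astrocytes (at least 10 nuclei, 29 sums). Clusters were compared with edgeR 4.0.16 in R 4.3.3 (quasi-likelihood test, TMM factors, filterByExpr, cluster and library terms, 13513 genes, Benjamini-Hochberg adjustment), and DESeq2 1.42.0 was an alternative. The study tested nuclei, which are not replicates. Levels, intervals and shares were computed with numpy 2.4.6, scipy 1.17.1 and pandas 2.3.3, and plots were drawn with matplotlib 3.10.9. With 1 library per week, weeks were not tested. The fit was tested on simulated data. Positions are from GENCODE M21 (GRCm38) and 45143 of 45706 feature identifiers matched it. Protein sequences were not used here.

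The text names all 10 members, from each list the 2 largest called rises and falls between the states that had the same direction in each library, list genes called at over 2 log2 units from RGL to NPC or NPC to NB1, and for each member the 2 genes most like it, of which 1 for Map2 is not reported here. Members and lists were chosen with earlier results of these data known.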

Additional observations from a re-analysis of the deposited data

Results flagged for a closer look

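The libraries differed in direction in 5 comparisons of a member, beyond their counting intervals, and these differences between libraries were not tested. For Dclk1, mature over immature nuclei gave a log2 ratio of 0.0878 in w4 and -0.25 in w8. For Map1b the same ratio was 1.12 in w1, where the mature side held 17 nuclei, and -0.0831 in w4. Its ratio of GCmat2 over GCmat1 was 0.10 in w8 and -0.29 in w4. For Map2, GCmat1 over GCyoung gave 0.13 in w8 and -0.0719 in w4. For Stmn2, NB2 over NB1 gave 0.29 in w2 and -1.36 in w4, where NB2 held 18 nuclei.

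The 2679 barcodes that have no cluster in the authors' table also held RNA of every measured member. Per the authors' methods, what they removed included doublets, low-quality nuclei and a group of w4 nuclei. For that group they propose a single male as the source, as a possible outlier. Their level over all libraries was 83.0 CPM for Dcx, 1146 CPM for Dclk1, 757 CPM for Map1b, 1035 CPM for Map2, 370 CPM for Mapt, 34.4 CPM for Stmn1, 77.8 CPM for Stmn2, 66.6 CPM for Stmn3 and 34.9 CPM for Tubb2b. In kept nuclei the pooled levels were 163 CPM for Dcx, 69.2 for Stmn1, 109 for Stmn2, 868 for Dclk1 and 905 for Map2. These pools mix the libraries in unequal parts, since 1628 of the barcodes without a cluster came from w4. There Dcx was 36.9 CPM against 108 CPM in kept nuclei and Dclk1 1316 CPM against 990 CPM, whereas in w8 Dcx was 29.2 against 33.3 CPM and Dclk1 794 against 818 CPM. Map2 was higher without a cluster in w4 (1062 against 758 CPM) and lower in w1 (1198 against 1301 CPM) and w2 (1037 against 1104 CPM). Stmn2 was 147 against 149 CPM in w1, 227 against 233 in w2, 49.8 against 76.5 in w4 and 15.0 against 16.2 in w8. Stmn1 was lower without a cluster in w4 (13.2 against 34.9 CPM) and stood at 8.68 against 7.17 CPM in w8. RGL and the oligodendrocyte precursors were the clusters with at least 10 nuclei in all 4 libraries. In 0 of the 18 combinations of these clusters with a measured member did a lone library stand apart by Dixon's criterion.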

How the results depend on the processing

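Of 130 counts recomputed under an alternative, 110 stayed within 1.5 times the main count and 20 did not. The mean log2 value per nucleus, which exists only for the 5 members in the authors' table and was held to the fold alone, gave 0 past it from RGL to NPC (main 5), 2 from NPC to NB1 (main 5), 0 from NB1 to GCimm1 (main 1), 0 from GCimm1 to GCimm2 (main 1), 1 from GCimm2 to GCyoung (main 4), 0 from GCyoung to GCmat1 (main 2), 0 from GCmat1 to GCmat2 (main 1) and 2 between the states (main 5). This alternative changed the measure, applied no test and covered 5 members. Dclk1, Map1b and Mapt have no value in it, so their calls in the main fit could not be met. Map1b was the only call from NB1 to GCimm1, and the 0 there was fixed in advance. From NPC to NB1, only Dcx and Stmn2 of the called members could be counted. The counts listed for this measure are among the 20 even so. From GCimm1 to GCimm2 the count was 0 with RLE factors, without the library term, after thinning to 2000 UMIs and at a fold of 2. DESeq2 gave 1 from GCyoung to GCmat1, and thinning gave 0 from GCmat1 to GCmat2. Leaving out each library in turn gave 4 to 6 from RGL to NPC, 4 to 6 from NPC to NB1, 0 from NB1 to NB2, 1 from NB1 to GCimm1, 0 to 1 from GCimm1 to GCimm2 (0 without w1, w2 or w4), 2 to 4 from GCimm2 to GCyoung (2 without w4), 1 to 2 from GCyoung to GCmat1 (1 without w8), 0 to 1 from GCmat1 to GCmat2 (0 without w4) and 5 to 6 between the states. The cause of these differences was not tested. Without w4, GCyoung rested on the 188 nuclei of w8 alone, and without w8 it rested on w4 alone. With library totals as the only scaling, chosen after seeing the data, the counts were 6, 5, 0, 1, 1, 6, 2, 1 and 5 in the order of the comparisons, without Map1b and with Map2 between the states.

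Other calls that a setting gained were Dclk1 between the states (0.59 with no filter on low counts, 0.74 with at least 50 nuclei per sum) and, from NPC to NB1, Stmn3 (0.66 with no filter) and Tubb2b (0.78 with no filter, 0.69 without w8). Low counts limited Stmn1, Stmn2 and Tubb2b in mature nuclei, where a library of GCmat1 or GCmat2 gave as few as 1 UMI. Few nuclei limited the GCmat1 of w1 (17 nuclei), the NPC of w4 (22 nuclei) and NB2 of w4 (18 nuclei).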

Other observations

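Outside the neuronal path, the members kept distinct levels in the few nuclei of other cell types. Stmn1 stood at 123 CPM in the 45 oligodendrocyte nuclei, at 244 CPM in w2, 105 in w4 and 30.0 in w8, and 22.2% of these nuclei held it after thinning to 2000 UMIs, against 1.43% in GCmat1. Map1b was 35.8 CPM in astrocytes and 297 CPM in pericytes. Dclk1 was 336 CPM in oligodendrocyte precursors and 63.7 CPM in oligodendrocytes, against 2070.5 CPM in astrocytes. Map2 was 609 CPM in astrocytes, 701 CPM in oligodendrocyte precursors and 182 CPM in oligodendrocytes. These levels come from 67 astrocyte, 131 oligodendrocyte precursor, 45 oligodendrocyte and 60 pericyte nuclei, and with so few libraries they are given as values only.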
